A study of Rattus norvegicus with 30 samples.

Results

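Solute carriers (SLC) are the membrane proteins that carry amino acids, sugars, metals, ions, vitamins and metabolites across the plasma membrane and the membranes of organelles. The genes described here are those with a rat SLC symbol and a mean signal of at least 200 over the 30 arrays of a study of mono-(2-ethylhexyl) phthalate (MEHP) in the rat testis. Slc2a1, Slc2a3 and Slc16a1 were left out of the set by its rule. The rule kept 127 genes with 154 probe sets, of 291 genes with 395 probe sets that carry such a symbol, and 164 genes had no probe set at that level. All 127 were among the 11280 genes tested. The members were chosen by their mean signal over all arrays, which is given as a description only. Just inside the limit stood Slc46a1 (207.3) and Slc26a6 (201.1), and just outside it Slc15a1 (197.1) and Slc25a42 (195.1). Among the members 1 gene had a mean under 200 after corn oil and 0 after MEHP. Slc4a1ap and Slc7a6os carry the name pattern but are named after a neighbour or a partner and are not transporters.

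MEHP is the monoester that the body makes from the plasticizer di-(2-ethylhexyl) phthalate, and Sertoli cells of the young testis are known to be sensitive to it. Male Fischer rats, 28 days after birth, received a single gavage of MEHP at 1 g/kg body weight in corn oil, or corn oil alone. Testes were taken 1, 2, 3, 6 or 12 h later, and the RNA of each animal was hybridised to its own Rat230_2 array. Each of the 10 groups held 3 animals, all of the same strain and age, each corn oil group is the control of its own time, and no genetic change is named in the labels. Corn oil animal 7 of 2 h has a number apart from those of the other animals, and its group was taken from its labels.

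SLC proteins work without ATP of their own and use gradients of their substrates or of sodium, protons or other ions, which the sodium and proton pumps maintain. In the testis the Sertoli cells form a barrier between blood and the developing germ cells, so that nutrients, metals and ions for spermatocytes and spermatids pass through carriers. The SLC25 proteins of the inner mitochondrial membrane exchange nucleotides, phosphate and metabolites with the cytosol. Many SLC35 proteins bring nucleotide sugars into the Golgi apparatus and endoplasmic reticulum.

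Promoters were taken from the RefSeq table of build GRCr8, where 102 of the 127 genes, and 13 of the 19 genes that differed at 12 h, had an entry. They are shown for 3 of those 13: Slc7a1, the arginine and lysine carrier long known as an amino acid response gene, and the mitochondrial carriers with the largest increase and the largest decrease. Each line gives 250 bases before the annotated start, 5′ to 3′ on the plus strand, at chr12:11664238-11664487 (Slc7a1), chr2:199449175-199449424 (Slc25a24) and chr1:212596601-212596850 (Slc25a45). Capitals mark matches to the motifs searched.
Slc7a1: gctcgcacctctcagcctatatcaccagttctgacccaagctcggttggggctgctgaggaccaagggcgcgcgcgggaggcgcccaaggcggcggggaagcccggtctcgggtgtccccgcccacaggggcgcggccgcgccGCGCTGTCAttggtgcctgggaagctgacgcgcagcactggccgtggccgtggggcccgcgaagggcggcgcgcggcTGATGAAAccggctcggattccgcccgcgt
Slc25a24: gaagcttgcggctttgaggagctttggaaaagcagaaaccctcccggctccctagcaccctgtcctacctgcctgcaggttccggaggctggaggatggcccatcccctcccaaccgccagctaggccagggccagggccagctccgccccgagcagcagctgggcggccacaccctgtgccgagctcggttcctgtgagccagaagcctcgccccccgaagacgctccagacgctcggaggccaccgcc
Slc25a45: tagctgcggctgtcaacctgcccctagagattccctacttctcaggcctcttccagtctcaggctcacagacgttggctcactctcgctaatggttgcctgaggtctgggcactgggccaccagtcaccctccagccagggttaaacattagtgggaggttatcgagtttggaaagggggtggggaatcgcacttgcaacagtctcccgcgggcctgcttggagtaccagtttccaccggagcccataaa

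The motifs were TGACNNNGC (antioxidant response element core), TGATGNAA (ATF4 composite element), CACGTG (E-box), TGACGTCA (cyclic AMP response element), TGANTCA (AP-1 site) and the kappa B site, searched on both strands from 250 bases before to 50 after the start. The Slc7a1 window held GCGCTGTCA at -107, which is the first motif read on the other strand, and TGATGAAA at -30. The windows of Slc25a24 and Slc25a45 held none of the 6. Of the 9 windows of members called higher at 12 h, that of Slc7a1 was the only 1 with the first motif or the second. Of the 5 windows of members called lower, 1 (Slc41a2) held the first motif and 0 the second. A gene can have more than 1 window. The E-box was in 1 of the 9 windows called higher (Slc12a7) and 0 of the 5 called lower. The kappa B site was in 0 of the 9 and 1 of the 5 (Slc25a18). The cyclic AMP element and the AP-1 site were in 0 of either. With so few windows these counts are a description only. The first motif was in 12.1% of all 33469 promoters and the second in 3.98%. Over the 110 windows of the member genes the shares were 16.4% and 3.64%, and 62.7% of bases were G or C at the median beside 51.7% in all promoters. E-boxes were in 10.9% of the member windows and 6.42% of all promoters. The corresponding shares were 3.64% and 1.83% for the cyclic AMP element, 4.55% and 7.33% for the AP-1 site, and 1.82% and 1.53% for the kappa B site. A match is a run of letters, and binding was not measured here.

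The deposited signals had nearly the same 2% trimmed mean on every array (500.1 to 500.2), and array medians ran from 117.2 to 165.4. Corn oil animal 48 of 2 h stood apart: its array was the lowest or the highest of the 30 for 54 of the 127 members (42.5%, beside 40.7% of the 8410 genes with mean signal of at least 200). MEHP animal 57 of 12 h held that place for 44 members (34.6% beside 31.8%) and MEHP animal 49 of 3 h for 23 (18.1% beside 20.2%). Bacterial spike controls had a mean log2 signal of 11.77 on the corn oil arrays and 11.03 on the MEHP arrays of 2 h. Corn oil animals 7, 47 and 48 of 2 h had 11.22, 11.91 and 12.17. Group means were 10.90 to 11.07 at 1 and 6 h and 11.66 to 11.73 at 3 and 12 h, whichever the treatment. Only at 2 h did the 2 treatments differ in this way. The labelled tissue was checked with marker lists. Markers of spermatocytes, with 6 of 8 listed genes measured, had summed signals of 60252 to 66638 after corn oil and 58217 to 65856 after MEHP at 12 h, and 0 of 6 passed the test. Sertoli cell markers had sums of 49825 to 54203 and 54202 to 59505, and of 10 measured 2 rose and 1 fell. Of the 5 epididymis markers listed, 0 were measured in that sense, a count that does not part genes of low signal from genes without such a probe set.

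Changes below are differences of log2(signal + 16) between MEHP and corn oil animals of one time, so that positive values are higher after MEHP. They are followed by limma's standard error, and each group held 3 animals. A gene was called when its p, adjusted by Benjamini-Hochberg over 21190 probe sets, was under 0.05, and each gene was represented by its member probe set of highest mean signal. Signals are linear, given in the order of the animal numbers, and are not compared between genes, since probe sets differ in brightness. The labels give 1 animal per array, and the p-values measure the spread between animals, pooled over the 10 groups. Slc41a1, Slc41a2, Slc41a3, Slc25a46, Slc46a1 and the members of widest spread are named after their values were seen.

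At 12 h limma called 19 of 127 members (15.0%), 11 higher and 8 lower after MEHP. Of the genes with mean signal of at least 200, 10.1% were called, 5.29% higher and 4.83% lower, and of all genes tested 10.4%. The 3 MEHP animals lay wholly above or below the 3 corn oil animals for 36 members (28.3%, beside 23.1% of genes at that signal). The median change of the members was -0.08, beside -0.05 in the genes at that signal, with 53 members above 0 and 74 below. Called changes of at least 2-fold were 4 increases (Slc39a14, Slc25a24, Slc8a1 and Slc7a11) and 1 decrease (Slc25a45), and all 108 members not called lay within 1.5-fold by their estimates. The 95% interval of the change lay within 2-fold either way for 109 of the 127.

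**Figure D1:**
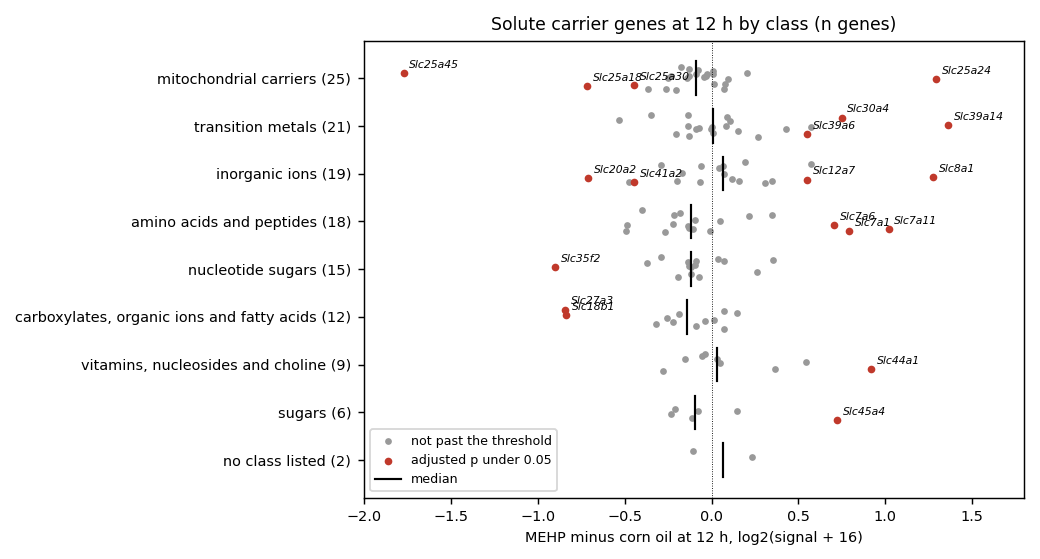
Changes of the 127 member genes at 12 h, MEHP minus corn oil in log2(signal + 16), by substrate class, assigned from the SLC family number, with the number of genes in each class. Slc49a4 and Slc66a1 had no class listed and form a group of their own. Red points are the 19 genes called by limma, named beside them, grey points the other 108, and black bars the class medians. The vertical spread of points within a class carries no value. The class medians lie between -0.14 and 0.07.

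Carriers of zinc and other transition metals had 21 members, of which 3 rose, 0 fell and 18 did not pass (median 0.01). Slc39a14, which brings zinc, manganese and iron into the cell, had signals of 353, 393 and 300.2 after corn oil and 1475, 673 and 771 after MEHP (animals 57, 58 and 59). All 3 MEHP animals were above all 3 controls, animal 57 by the most. The change was 1.36 ± 0.22, or 2.57-fold (adjusted p = 0.000169).

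Slc30a4, which moves zinc out of the cytosol into vesicles, rose by 0.75 ± 0.13 (1.68-fold, adjusted p = 0.000205), from 1286, 1324 and 1431 to 2683, 1876 and 2334. The groups did not overlap. Slc39a6, another zinc importer, had 1451, 1379 and 1457 after corn oil and 3156, 1522 and 1922 after MEHP, and rose by 0.55 ± 0.15 (adjusted p = 0.0229). Its MEHP animal 58 lay close above the controls. Its other probe sets gave 0.69 (adjusted p = 0.00444) and 0.62 (adjusted p = 0.0574). The call of Slc39a6 was lost without MEHP animal 57 (0.26, adjusted p = 0.237) or corn oil animals 60, 61 or 62 (adjusted p = 0.06, 0.0794 and 0.0602).

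Slc30a1, the zinc exporter of the plasma membrane, had 307, 393 and 339.8 after corn oil and 589, 424 and 563 after MEHP, a change of 0.57 ± 0.21 that did not pass (adjusted p = 0.0941). Slc39a8, a zinc and manganese importer related to Slc39a14, had 372, 312 and 369.6 after corn oil and 221.5, 260.3 and 231 after MEHP (-0.53 ± 0.19, adjusted p = 0.0779). These 2 genes had groups that did not overlap, in opposite directions. The iron carriers Slc40a1, which exports iron, and Slc11a2, which imports it, had -0.21 ± 0.20 and 0.15 ± 0.13. The second probe set of Slc11a2 gave 0.69 (adjusted p = 0.0727).

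The families of amino acid and peptide carriers had 18 members by name, of which 3 rose, 0 fell and 15 did not pass (median -0.12). Without Slc7a6os, which is no carrier, 17 remained, with a median of -0.10 and 11 below 0. The 3 that rose all belong to family 7. Slc7a11, the subunit that takes up cystine in exchange for glutamate, had 242.6, 246.8 and 371.5 after corn oil and 575.5, 592 and 596 after MEHP. The MEHP animals lay close together and above the controls. It rose by 1.02 ± 0.32 (2.03-fold, adjusted p = 0.0459), and this call was lost without any of 18 single animals (adjusted p of up to 0.163 without corn oil animal 60), among them all 3 MEHP animals of 12 h, with quantile normalization (adjusted p = 0.0724) and with median centring of arrays (adjusted p = 0.067). It was also lost with no filter on low signals (adjusted p = 0.059), with 1 added to signals in place of 16 (adjusted p = 0.0534) and with the 12 h arrays alone (adjusted p = 0.051). The 18 were corn oil animals 40, 41, 42, 34, 35, 36, 60 and 61 and MEHP animals 37, 38, 39, 43, 44, 45, 31, 57, 58 and 59.

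Slc7a1, the main carrier of arginine and lysine into cells, whose promoter is printed above, had 1348, 1146 and 1303 after corn oil and 3740.3, 1499 and 1896 after MEHP. All MEHP animals were higher, animal 57 far above the other 2. The change was 0.79 ± 0.22 (1.73-fold, adjusted p = 0.0202), and its second probe set gave 0.48 (adjusted p = 0.239). The call was lost without MEHP animal 57 (0.41, adjusted p = 0.235) or corn oil animals 61 (adjusted p of 0.0865) or 62 (adjusted p of 0.0536).

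Slc7a6, which exchanges basic for neutral amino acids, rose by 0.71 ± 0.15 (adjusted p = 0.0026), from 841, 989 and 992 to 2147, 1164 and 1464. The groups did not overlap. Its partner Slc3a2, the heavy chain that carries Slc7a5, Slc7a6 and Slc7a11 to the plasma membrane, had 3984, 4016 and 4346 after corn oil and 3636, 4389 and 3569.8 after MEHP, groups that overlapped (-0.10 ± 0.11, adjusted p = 0.713, 95% interval -0.32 to 0.13). Slc7a5, the carrier of leucine and other large neutral amino acids, had 1412, 1257 and 1449.6 after corn oil and 1066, 942 and 912 after MEHP. Its MEHP animals were all lower, but the change of -0.49 ± 0.16 did not pass (adjusted p = 0.0606).

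Other members of known function in this class did not pass. These were Slc38a2, a glutamine and alanine carrier (-0.18 ± 0.13), Slc6a6, the taurine carrier (-0.40 ± 0.18), and Slc6a8, the creatine carrier (-0.14 ± 0.10). The ATF4 pathway, through which cells answer amino acid shortage, has several of these carriers among its known targets. Of 21 measured genes of that response outside the SLC family, 4 rose and 5 fell at 12 h (median -0.09). The transcription factors Atf3 (3.34 ± 0.40), Cebpb (2.37 ± 0.35) and Atf4 (0.51 ± 0.15) and the stress protein Nupr1 (1.48 ± 0.20) rose. The serine synthesis enzymes Phgdh (-1.30 ± 0.26) and Psat1 (-0.52 ± 0.14), asparagine synthetase Asns (-0.77 ± 0.16), Ddit4 (-0.84 ± 0.22) and Sesn2 (-0.56 ± 0.17) fell. Atf3 also rose at 6 h (2.44 ± 0.40, adjusted p = 0.00438).

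**Figure D2:**
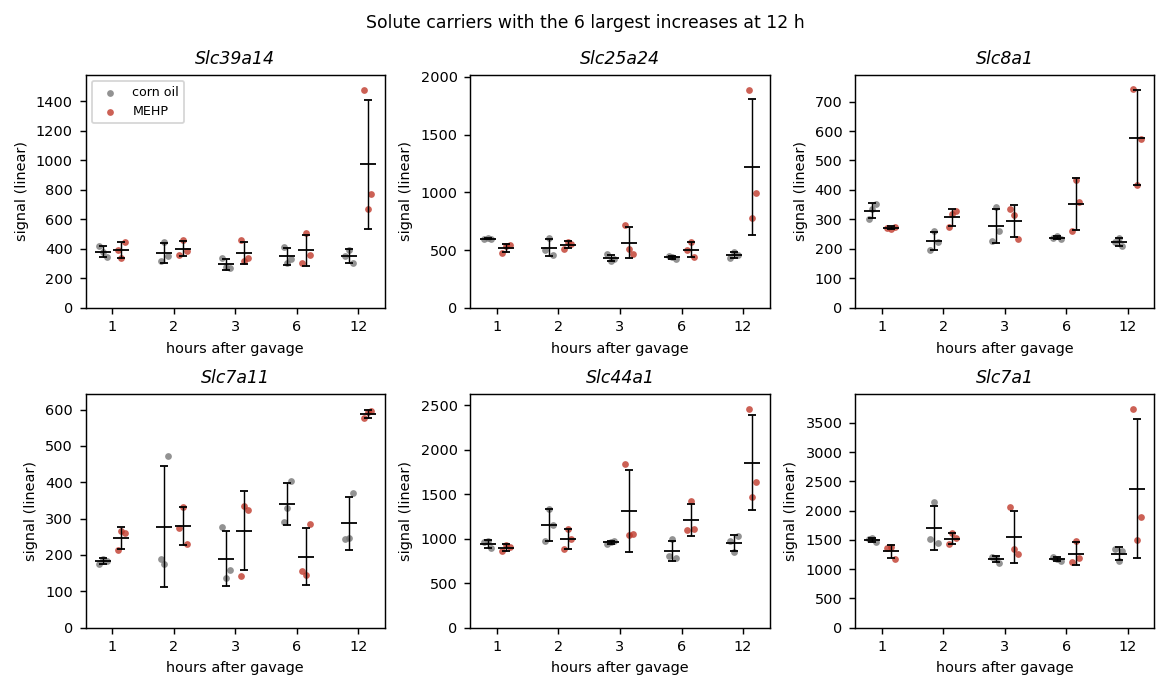
Signals of the 6 member genes with the largest called increases at 12 h, against hours after gavage (times evenly spaced), on linear signal axes that start at 0. Points are single animals (grey corn oil, red MEHP), bars the mean and SD of 3 animals. At 12 h the MEHP animals lie above the corn oil animals for each of the 6, and 1 MEHP animal is far above the other 2 for Slc39a14, Slc25a24, Slc44a1 and Slc7a1.

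Families grouped under inorganic ions had 19 members by name, of which 2 rose, 2 fell and 15 did not pass (median 0.07). Without Slc4a1ap, which is no carrier, and the urea carrier Slc14a2, 17 remained, 13 of them not past the test (median 0.07). Slc8a1, the exchanger that lets sodium in and calcium out, had 224, 235.4 and 209.7 after corn oil and 741, 418 and 572 after MEHP. Its groups were well apart, and the change was 1.28 ± 0.18 (2.42-fold, adjusted p = 3.39e-05), the smallest adjusted p of the members at 12 h. Slc12a7, which lets potassium and chloride out of the cell, rose by 0.55 ± 0.13 (adjusted p = 0.00519), from 449.7, 487 and 455 to 844, 594 and 645. Its groups did not overlap, but its call was lost without MEHP animal 57 (0.41, adjusted p = 0.0665).

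Slc20a2, a sodium-coupled phosphate importer, had 349, 309 and 292.8 after corn oil and 124.8, 252.9 and 205.9 after MEHP. All MEHP animals were lower, animal 57 by the most. It fell by 0.71 ± 0.15 (adjusted p = 0.00319), and its second probe set gave -0.49 (adjusted p = 0.239). Slc41a2, a magnesium carrier, fell by 0.45 ± 0.14 (adjusted p = 0.038), from 1026, 938.5 and 1267 to 581, 938.7 and 869.6. Its groups overlapped, the only such case among the 19, since MEHP animal 58 lay just above corn oil animal 61. The second probe set of Slc41a2 gave 0.07 (adjusted p = 0.832). The Slc41a2 call was lost without MEHP animal 57 (-0.24, adjusted p = 0.355) or corn oil animals 60 (adjusted p of 0.073) or 62 (adjusted p of 0.241), with median centring of arrays (adjusted p = 0.0853), with array weights (adjusted p = 0.115) and without the 2 h arrays (adjusted p = 0.0651).

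The related magnesium carriers Slc41a1 and Slc41a3 had 0.57 ± 0.22 and -0.48 ± 0.18 and did not pass. Slc20a1, the other phosphate importer of its family, had -0.20 ± 0.09 (adjusted p = 0.233). Slc12a2, which brings sodium, potassium and chloride into the cell, had 0.07 ± 0.12. The folate carrier Slc46a1 had 0.54 ± 0.21 (adjusted p = 0.124).

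Mitochondrial carriers were the largest class, with 25 members, of which 1 rose, 3 fell and 21 did not pass (median -0.09, 17 below 0). Slc25a24, which exchanges ATP-magnesium for phosphate under the control of calcium, had 427, 479.6 and 459 after corn oil and 1888, 781 and 993 after MEHP. All 3 MEHP animals were above the controls, animal 57 highest. The change was 1.29 ± 0.20 (2.45-fold, adjusted p = 7.38e-05), in a gene whose printed promoter window held none of the motifs searched.

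Slc25a45, a member of the same family in the inner membrane, had 543, 511 and 570.4 after corn oil and 67.2, 319.9 and 139.9 after MEHP. Every MEHP animal was lower, and the signal of animal 57 was below the 40th percentile of its own array (86.6), the limit under which signals were treated as low. It fell by 1.77 ± 0.28 to 0.293 of its control level (adjusted p = 0.000122), the decrease of largest size among the members. The size depends on the value added to signals, and was -1.90 for Slc25a45 with 1 added and -1.48 with 64.

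Slc25a18, a glutamate carrier, fell by 0.72 ± 0.21 (adjusted p = 0.0346), from 409.8, 406 and 409 to 125, 378 and 294. Its controls were nearly equal and MEHP animal 58 was close below them. The call of Slc25a18 was lost without MEHP animal 57 (-0.28, adjusted p = 0.321), without any 1 of the corn oil animals 60, 61 and 62 (adjusted p of 0.0944, 0.0856 and 0.0953), and without the 2 h arrays (adjusted p = 0.0529). Slc25a30 fell by 0.44 ± 0.12 (adjusted p = 0.0149), from 3008, 2646 and 3319 to 2118, 2229.9 and 2209, with groups that did not overlap. That call was lost without MEHP animal 57 (adjusted p = 0.0703) or corn oil animals 60 (adjusted p of 0.0526) or 62 (adjusted p of 0.106), and the second probe set gave -0.27 (adjusted p = 0.361).

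The main probe set of Slc25a46, a protein of the outer mitochondrial membrane, gave -0.14 (adjusted p = 0.746) while its second one fell by 0.53 (adjusted p = 0.00983), so its probe sets disagreed. Slc25a20, which carries fatty acids into mitochondria as acylcarnitines, had -0.23 ± 0.15. Slc25a39, which takes glutathione into mitochondria and had the highest mean signal of the members, had 0.01 ± 0.16 at 12 h.

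**Figure D3:**
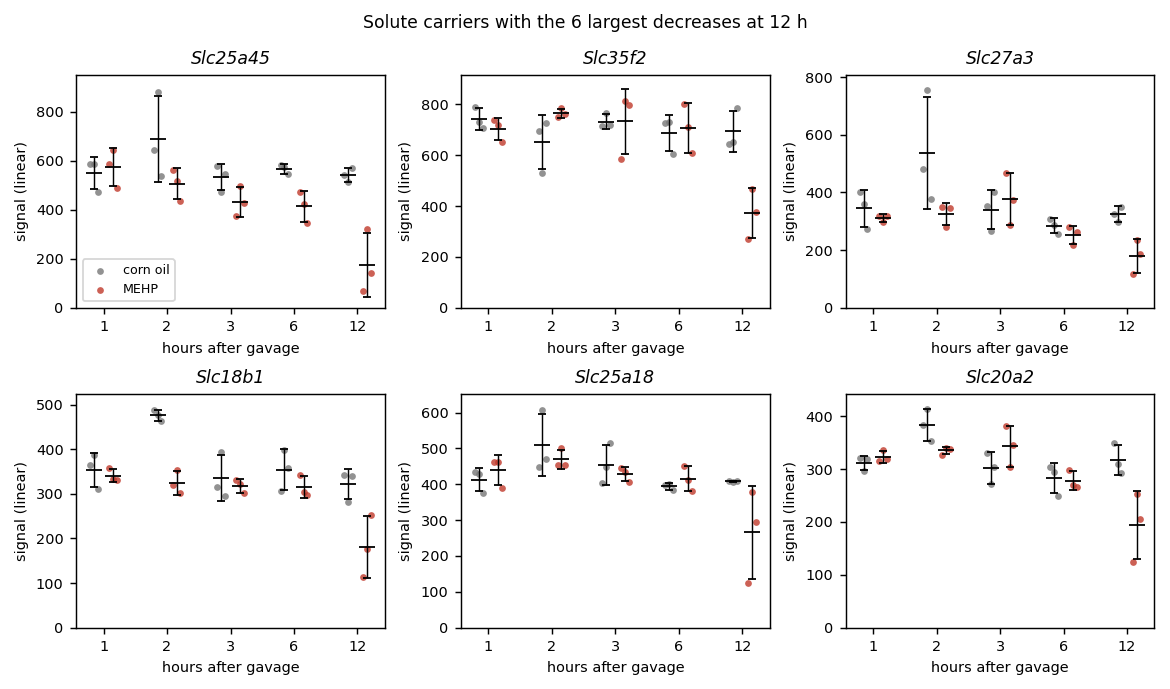
Signals of the 6 member genes with the largest called decreases at 12 h, against hours after gavage (times evenly spaced), on linear signal axes that start at 0. Points are single animals (grey corn oil, red MEHP), bars the mean and SD of 3 animals. At 12 h the MEHP animals lie below the corn oil animals for each of the 6, while corn oil animals of 2 h spread widely for Slc25a45 and Slc27a3.

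Carriers of carboxylates, organic ions and fatty acids had 12 members, of which 0 rose, 2 fell and 10 did not pass (median -0.14). Slc27a3, of the family that couples fatty acid uptake to acyl-CoA synthesis, had 324.8, 297 and 351 after corn oil and 117.7, 236.5 and 185.7 after MEHP. The groups did not overlap, and it fell by 0.84 ± 0.22 (adjusted p = 0.0168). The call was lost without MEHP animal 57 (-0.59, adjusted p = 0.18) or corn oil animals 60 (adjusted p of 0.0536) or 62 (adjusted p of 0.0766).

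Slc18b1, which loads polyamines into vesicles, fell by 0.84 ± 0.17 (adjusted p = 0.0018), from 341.5, 282.7 and 340.6 to 113.1, 176.7 and 253.4, again with no overlap. Slc22a5, which takes up carnitine, and Slc27a1, a fatty acid carrier, had 0.14 ± 0.11 and -0.26 ± 0.11 and did not pass. Of 15 members of the nucleotide sugar family 1 fell, 0 rose and 14 did not pass (median -0.12). That 1 was Slc35f2, placed in the class by its family number alone, with 643, 653 and 786 after corn oil and 270.4, 467 and 378 after MEHP. All MEHP animals were lower, and the fall was 0.90 ± 0.16 (0.536 of control, adjusted p = 0.00033).

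Of 9 carriers of vitamins, nucleosides and choline 1 rose, 0 fell and 8 did not pass (median 0.03). Slc44a1, a choline carrier, rose by 0.92 ± 0.18 (1.89-fold, adjusted p = 0.0014), from 972, 854 and 1025 to 2459, 1463 and 1638. The groups did not overlap on that probe set, but its other probe sets gave 0.40 (adjusted p = 0.308) and -0.43 (adjusted p = 0.414), so the direction for the gene depends on the probe set. Slc29a1, a nucleoside carrier, had -0.28 ± 0.17. Among 6 members of sugar carrier families Slc45a4 rose by 0.72 ± 0.15 (adjusted p = 0.00214), from 802, 751 and 784 to 1126, 1358 and 1422, and the other 5 did not pass (class median -0.09). For Slc45a4 it was animal 57 that lay nearest to the controls.

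Over the 19 called members, MEHP animal 57 was the farthest of the 3 MEHP animals from the corn oil mean for 17 (89.5%) and animal 58 the nearest for 16 (84.2%). Over all 1852 called probe sets animal 57 was the farthest for 1482 and animal 58 the nearest for 71.9%. Without animal 57, 11 members were called (7 higher, 4 lower), all of them among the 19: Slc39a14, Slc25a24, Slc8a1, Slc44a1, Slc30a4, Slc45a4, Slc7a6, Slc25a45, Slc35f2, Slc18b1 and Slc20a2. Without animal 58, 26 were called (13 lower), and without corn oil animals 60 or 62, 13 (4 lower). A fit of the 6 arrays of 12 h alone, with fewer degrees of freedom, called 2, Slc8a1 and Slc45a4. The main fit pools the spread of all 10 groups. Over the probe sets tested, log2 signals had an SD around their group means of 0.421, 0.420 and 0.269 in MEHP animals 57, 58 and 59. In corn oil animals 60, 61 and 62 it was 0.180, 0.192 and 0.195. The standard errors and p-values given for 12 h use the pooled spread, which does not follow the wider spread of these MEHP animals.

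Markers of other cells moved at the same time, and the testis was profiled whole. Fewer cells of a type and less RNA per cell cannot be told apart in such samples. Of 7 Leydig cell markers 5 fell and 1, Star, rose at 12 h (median -1.32), with summed signals of 13439 to 17004 after corn oil and 3119 to 9100 after MEHP. Of 5 peritubular markers 4 rose (sums 2755 to 2887 and 4245 to 6039), and of 9 macrophage markers 2 rose (1719 to 1932 and 2732 to 3751). Both measured neutrophil markers of 6 listed, S100a8 and S100a9, rose. Their sums were 15.8 to 30.6 after corn oil and 7358, 375 and 723 in MEHP animals 57, 58 and 59. Among the arrays of other times, corn oil animal 7 of 2 h had 209.8 and MEHP animal 49 of 3 h 103.3. The rest had at most 47.8. The pair could pass the signal filter only with the help of MEHP animals of 12 h, so its rise is a description only. Of 6 endothelial markers 1 rose (median 0.11), and the 5 measured markers of spermatogonia, 3 of spermatids and 4 of erythrocytes had medians of -0.19, 0.17 and 0.20 with none past the test. The part of these cells in the changes of the carriers was not tested.

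At 2 h limma called 2 members (1.57%), both lower, beside 0.63% of the genes with mean signal of at least 200 (0.392% lower). They were Slc25a4 and Slc25a5, the adenine nucleotide translocases that exchange mitochondrial ATP for cytosolic ADP. Slc25a5 had 8549, 7674 and 9594 in corn oil animals 7, 47 and 48 and 6225, 6963 and 6191 in MEHP animals 43, 44 and 45. The change was -0.41 ± 0.09 (0.753 of control, adjusted p = 0.0339). Slc25a4 had 5123, 4841 and 6303 after corn oil and 3837, 4046 and 4081 after MEHP (-0.43 ± 0.10, adjusted p = 0.0425). The groups of both genes did not overlap, and corn oil animal 48 was the highest.

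Slc25a3, the mitochondrial phosphate carrier that supplies ATP synthesis, had the third smallest p, with 7485, 6644 and 7749.8 after corn oil and 5501, 6093 and 5815 after MEHP (-0.33 ± 0.09, adjusted p = 0.0708). The second probe set of Slc25a30 was called too (-0.83, adjusted p = 0.0178), while its main one was not (-0.42, adjusted p = 0.0881). Groups did not overlap at 2 h for 25 members (19.7%, beside 20.5%). An unadjusted p under 0.05 was found for 18 members, a description only, since the share of all genes under that limit was not counted. The 95% interval lay within 2-fold for 117.

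The translocase calls rested on the 2 h corn oil arrays. At 1 h corn oil animals had 4330, 4191 and 4105 for Slc25a4 and 6581, 7286 and 5905 for Slc25a5, lower than the 2 h controls. Against these 1 h controls the 2 h MEHP animals gave -0.08 and -0.03 (adjusted p = 1.0 for both). Without corn oil animal 48 the changes were -0.32 (adjusted p = 0.219) and -0.33 (adjusted p = 0.197), and without MEHP animals 43, 44 or 45 0 members were called as well. The Slc25a4 call was also lost without any 1 of 10 arrays of other times (corn oil animals 34, 40, 41, 42, 52, 60 and 62 and MEHP animals 32, 38 and 51), with adjusted p of 0.0508 to 0.0538. Fitted with each array's spike level as covariate, Slc25a4 and Slc25a5 had changes of -0.37 (adjusted p = 0.314) and -0.35 (adjusted p = 0.273). The part of array processing in these 2 calls was not tested further.

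Markers of some other cells were also lower at 2 h. Those of peritubular cells, endothelium and spermatocytes were not, with medians of 0.06, 0.09 and 0.045. All 10 measured Sertoli cell markers had changes below 0 (median -0.35), with summed signals of 52060 to 74586 after corn oil and 46978 to 49292 after MEHP. Of these markers 0 passed the adjusted test, and 3 had an unadjusted p under 0.05, a limit at which all genes were not counted. All 9 macrophage markers were below 0 (median -0.57, sums 1802 to 2422 and 1556 to 1596), and C1qb, a complement subunit made by macrophages, fell by 0.88 ± 0.20 (adjusted p = 0.0425). Dmrt1, listed as a marker of spermatogonia, fell by 0.64 ± 0.12 (adjusted p = 0.0157). Corn oil animals of 1 h had sums of 48488 to 50432 for the Sertoli markers and 1447 to 1584 for the macrophage markers. Both ranges lie below those of the 2 h controls, on which these falls depend as well. The part of these cells in the translocase values was not tested.

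**Figure D4:**
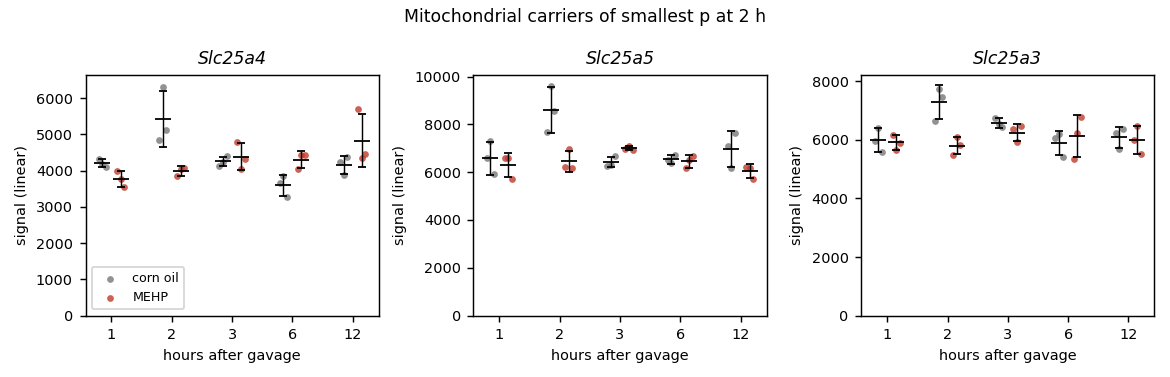
Signals of Slc25a4, Slc25a5 and Slc25a3, the members of smallest p at 2 h, against hours after gavage (times evenly spaced), on linear signal axes that start at 0. Points are single animals (grey corn oil, red MEHP), bars the mean and SD of 3 animals. The corn oil animals of 2 h lie above both groups of 1 h, and the MEHP animals of 2 h lie within or close to the range of the 1 h groups.

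At 1, 3 and 6 h limma called 0 members, beside 0.0%, 0.107% and 0.238% of the genes with mean signal of at least 200. Unadjusted p was under 0.05 for 2, 8 and 15 members. The share of all genes under that unadjusted limit was not counted, so these counts are a description only. The 95% interval of the change lay within 2-fold for 120, 117 and 122 members. Groups did not overlap for 41 members at 1 h (32.3%, beside 24.4%), 19 at 3 h (15.0%, beside 10.9%) and 19 at 6 h (15.0%, beside 12.8%). Median changes were -0.01, -0.02 and -0.01, beside 0.00, -0.05 and -0.01 in the genes at that signal.

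At 1 h the smallest p belonged to Slc25a51l1, a mitochondrial carrier (0.33 ± 0.13), Slc26a5, an anion carrier family member (0.47 ± 0.22), and Slc22a5 (0.23 ± 0.11), each with an adjusted p of 0.941. At 3 h it belonged to Slc25a31, the adenine nucleotide translocase of germ cells (-0.41 ± 0.14, adjusted p = 0.477), Slc4a1ap (-0.28 ± 0.11) and the choline carrier relative Slc44a2 (-0.37 ± 0.16). Slc25a31 had 2733, 3049 and 2969.8 after corn oil and 1574, 2683 and 2506 after MEHP, so that animal 49 was far below the rest. At 6 h Slc4a7, which brings sodium and bicarbonate into the cell, had 1397, 1325 and 1316 after corn oil and 1687, 1781 and 1894.5 after MEHP. The groups did not overlap, but the change of 0.40 ± 0.11 did not pass (adjusted p = 0.272). Slc45a4 had 0.49 ± 0.15 (adjusted p = 0.378) and Slc49a4 0.45 ± 0.15 (adjusted p = 0.548).

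The change differed between the 5 times, by an F test of the differences in limma, for 6 members (4.72%, beside 3.23%). These were Slc8a1, Slc30a4, Slc25a24, Slc25a4, Slc35f2 and Slc7a6. For Slc8a1 the changes were -0.26, 0.41, 0.09, 0.50 and 1.28 at 1, 2, 3, 6 and 12 h. Slc30a4 had -0.14, -0.11, 0.19, 0.34 and 0.75. For Slc35f2 the changes were -0.08, 0.24, -0.01, 0.04 and -0.90. Slc25a24, Slc35f2, Slc39a14 and Slc7a11 differed between 12 h and 6 h directly (1.11 ± 0.28, -0.94 ± 0.22, 1.23 ± 0.32 and 1.82 ± 0.45), beside 1.84% of genes at that signal. At 6 h Slc7a11 itself had -0.80, not called (adjusted p = 0.76). Among corn oil animals 0 members differed between times, beside 0.0476%.

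Of the 12 members with the largest spread within groups, 9 had their lowest signal in corn oil animal 48 of 2 h. They were Slc1a4 (small neutral amino acids), Slc22a21 and Slc22a15 (organic cation and carnitine carrier family), Slc2a8 (a glucose carrier inside cells), Slc16a9, Slc13a5 (citrate), Slc30a3 (zinc into vesicles), Slc26a8 (an anion carrier of male germ cells) and Slc14a2 (urea). These 9 are described because animal 48 was their lowest array, so their place there, between -2.21 and -1.24 in log2 from their median over the 30 arrays, is fixed by that choice. In MEHP animal 49 of 3 h they lay between -1.52 and -0.90, and in MEHP animal 57 of 12 h between -1.72 and -0.12. A choice by spread within groups favours genes far from their group on any array. The places in animals 49 and 57 are therefore not independent of that choice. Equally wide genes outside the set were not counted. The other 27 arrays lay between -0.82 and 0.86. The other 3 of the 12 did not share this pattern: in animals 48, 49 and 57 Slc7a11 lay at -0.56, -0.83 and 1.08, Slc5a3, the myo-inositol carrier, at 0.79, 0.86 and 0.38, and Slc25a45 at 0.72, -0.48 and -2.71.

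Animals 48 and 49 had the lowest gavage volumes of the 30 (0.178 and 0.188 ml). Animal 57 had 0.21 ml, beside 0.265 and 0.24 ml in the other MEHP animals of 12 h, and the lowest log2 ratio of 3' to 5' hexokinase control signals of the 30 arrays (0.231). RNA integrity numbers were 8.2, 9.5 and 9.3 for animals 48, 49 and 57, and 8.2 to 8.5 over the 2 h arrays. With gavage volume as a covariate 25 members were called at 12 h, 14 higher and 11 lower, and 2 at 2 h. The part of these measures in the low signals was not tested.

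Slc1a4 had the largest spread, with signals from 82.8 in animal 48 through a median of 442 to 814.5 in MEHP animal 33 of 6 h. At 1 h its corn oil animals had 260.2, 266 and 344.5 and its MEHP animals 462, 518 and 755, with no overlap, but the change of 0.94 ± 0.48 had an adjusted p of 0.941. At 12 h it had -0.49 ± 0.48 (adjusted p = 0.653). The SD within groups was 0.19 in log2 at the median of the members and 0.18 at that of the genes with mean signal of at least 200.

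**Figure D5:**
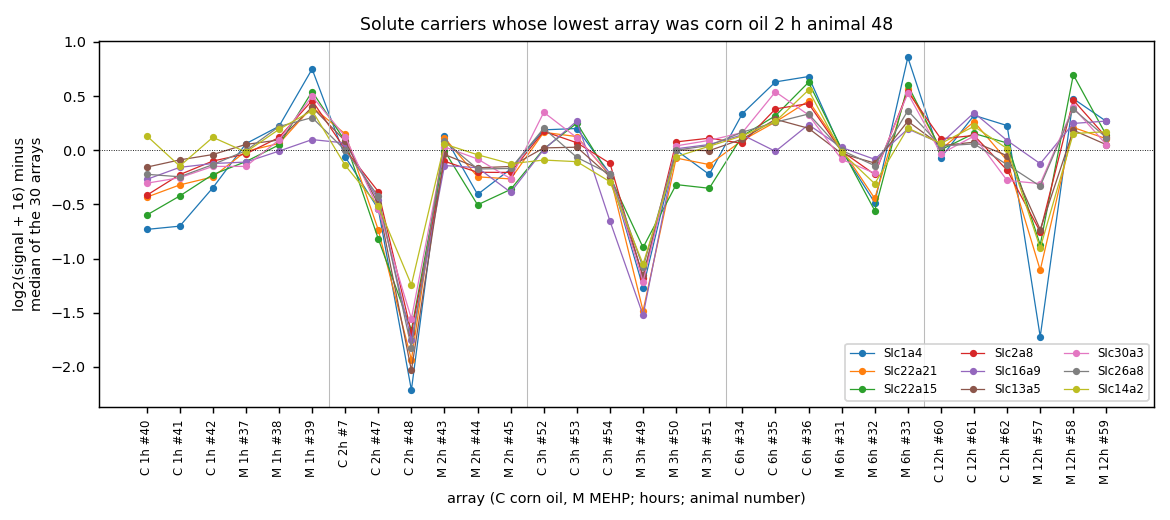
Log2(signal + 16) of 9 member genes on each of the 30 arrays, less the gene's median over the arrays. Arrays are ordered by time and treatment (C corn oil, M MEHP), with the animal number, lines join the arrays of a gene for the eye only, and grey lines part the times. The genes were picked for wide spread within groups and for their lowest place in corn oil animal 48 of 2 h. They are also low in MEHP animal 49 of 3 h and, less evenly, in MEHP animal 57 of 12 h, which is not independent of the choice by spread.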

How the data were processed

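Total RNA of the testes was measured on 30 one-colour Rat230_2 arrays with a biotin label, 1 per animal. The authors deposited linear signal intensity per probe set, from GCOS 1.0 per the submitters' processing notes, and the deposited values share 1 trimmed mean (2% trimmed at each end). The summary method is not given in the sources used here.

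Of 31099 probe sets, 57 controls were left out, and 21190 at or above an array's 40th percentile in at least 3 arrays were tested. Limma 3.58.1 (R 4.3.3) was run on log2(signal + 16) with 1 mean per group over all 30 arrays (20 residual degrees of freedom, 24.2 with moderation by a trend) and Benjamini-Hochberg adjustment. The procedure was also run on simulated data, with independent normal noise whose SD for a probe set was the same in every group. Such data lack the wider spread of the MEHP animals of 12 h, so that run cannot check the calls at 12 h. A probe set was named through GEO's platform annotation where it had 1 symbol (20826 probe sets), and all 127 member symbols matched current RefSeq symbols.

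The members and lists were chosen with earlier results of these data known. Genes named with values were those called whose groups did not overlap, the 3 of smallest p where fewer than 3 were called, the members near the signal limit, and a list of well known carriers. Genes of that list that were no members are not described. Substrate classes follow the SLC family number, and Slc49a4 and Slc66a1, whose families had no class listed, are in none of the class counts. Alternatives changed the added value, the filter, the normalization, the covariates and weights, the probe set rule and the signal limit, and left out each array. Microarrays carry no read depth, and the number of animals limits precision.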

Additional observations from a re-analysis of the deposited data

Results flagged for a closer look

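For 6 members the change after MEHP differed between the 5 times, by limma's F test of the differences with Benjamini-Hochberg adjustment. The adjusted p was 0.00759 for the sodium-calcium exchanger Slc8a1, 0.0157 for the vesicle zinc carrier Slc30a4 and 0.0165 for the mitochondrial ATP-magnesium carrier Slc25a24. It was 0.0177 for the translocase Slc25a4, 0.0203 for Slc35f2 and 0.0478 for the amino acid exchanger Slc7a6. Slc25a4 is the only 1 of the 6 that was not called at 12 h. Its changes were -0.16, -0.43, 0.04, 0.26 and 0.21 at 1, 2, 3, 6 and 12 h, and its 2 h value rests on the controls of that time.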

How the results depend on the processing

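The changes of the genes named by p or size kept their sign under the alternatives run on their main probe sets, while other probe sets of Slc44a1 and Slc41a2 gave the opposite sign. Member medians near 0 crossed it, with a highest value of 0.06 at 1 h. The 3 h median reached 0.005 and that of 6 h 0.03. At 2 h the 2 calls became 0 against the 1 h corn oil animals, with median centring, with quantile normalization, without a filter, with the spike level as covariate and with the arrays of that time alone, and 22 with array weights. Array weights gave 1 call at 3 h, 8 at 6 h and 33 members that differed between times. That last count was 6 in the fit reported, 10 with the gavage volume and 3 with the spike level as covariate. At 12 h the arrays of that time alone called 2, with 2 higher and 0 lower. A signal limit of 400 left 5 lower among 84 genes. Leaving out 1 array gave 0 to 5 calls at 2 h, 11 to 26 at 12 h (7 to 13 higher, 4 to 13 lower) and 3 to 12 that differed between times, the 3 without corn oil animals 60 or 62 of 12 h and the 12 without MEHP animal 58. It gave 0 at 1, 3 and 6 h. Without the 2 h arrays, an alternative chosen after seeing the data, 17 members were called at 12 h. No paired analysis was possible because each animal has a number of its own and no 2 groups share numbers.

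With 3 animals per group the median standard error of a change was 0.15 in log2, so small changes could not be detected. Probe sets of 1 gene differed in size and at times in direction.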

Other observations

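Other transport genes were counted beside the carriers at 12 h, when 10.4% of all genes tested were called. Of 30 measured ABC transporters, which use ATP to pump lipids, bile salts and drugs, 5 rose and 1 fell (median -0.02). Abcc3, an exporter of conjugated organic anions, rose by 1.98 (limma, adjusted p = 0.000466), Abcc9, the regulatory subunit of ATP-sensitive potassium channels in muscle and vessels, by 1.45 (adjusted p = 0.000151) and Abcg1, a cholesterol exporter, by 1.04 (adjusted p = 0.00947). Abcc8, at a low mean signal of 65.1, rose by 0.68, and Abca1, which loads cholesterol onto lipoproteins, by 0.65. Abcd2, a peroxisomal fatty acid carrier, fell by 0.76 (adjusted p = 0.0263).

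Of 16 measured sodium and calcium pump genes 1 rose (Fxyd5, 0.98) and 1 fell (Atp2b3, a calcium pump of the plasma membrane, -1.94). Of 20 subunits of the vacuolar proton pump 1 rose (Atp6v0a1, 0.89). Of 7 aquaporins 1 fell (Aqp2, -1.70, at a mean signal of 38.5). The 7 measured organic anion transporting polypeptides had a median of -0.18, and the member of smallest adjusted p, Slco1a4, had -0.59 (adjusted p = 0.0708).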
